A study of Drosophila melanogaster with 12 samples.

Results

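Gene expression was compared between third-instar larvae and adults of a *Drosophila melanogaster* strain that the labels describe as resistant to avermectins, macrocyclic lactones that kill insects by opening chloride channels of nerve and muscle. The comparison rests on 6 of the series' 12 whole-body RNA libraries, 3 from resistant larvae and 3 from resistant adults, chosen by their labels. Of 14001 genes in the deposited table, 12013 were at 1 FPKM or more in at least 3 of the 6 libraries and were tested. The other 6 libraries, 3 from larvae and 3 from adults of an avermectin-sensitive strain, enter only where the stage difference of the resistant strain was tested against theirs. The labels name no genotype, allele, sex, adult age or exposure for either stage, and they give resistance to avermectins as the treatment of both stages, so the larvae and the adults differ by stage alone as far as the labels go. They do not say whether the replicates came from separate cultures, so each p-value rests on the spread of these libraries alone, and that spread may be technical.

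*Drosophila* builds its body in separate steps. The third-instar larva is a feeding and growing animal with a soft cuticle, a large fat body, polyploid salivary glands and imaginal discs, the epithelial sheets from which adult appendages and eyes form. Near the end of this stage pulses of the steroid hormone ecdysone end feeding, fill the fat body and blood with storage proteins and make the salivary glands secrete the glue that fixes the puparium. During metamorphosis most larval tissue is broken down, and the adult that emerges carries compound eyes, flight muscle, a hardened cuticle and mature gonads.

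FPKM scale the reads of a gene to the length of its transcript and to the sum over the library. Depth, read from the spacing of low values, was estimated at 11200000 to 12760000 reads in each library, with 12997 to 13452 genes detected. The 20 leading genes held 19.83 to 23.96% of all FPKM in larvae and 10.08 to 12.65% in adults. Libraries of a stage were alike, with correlations of log2(FPKM + 1) across genes of 0.97 to 0.98 among larvae and 0.939 to 0.983 among adults, against 0.573 to 0.623 between the stages. The adult library of replicate 3 stood apart from the other adults: it held the lowest of the 3 adult values for 54.5% of genes tested, and the adult library of replicate 2 held the highest for 50.2%. Among larvae the library of replicate 3 stood apart in the glue and cuticle genes described below. In the digestive proteases larval library 1 was the lowest larval library for 25 of 27 members and library 3 the highest for 20. Values without a library are given beside the results below.

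Differences are given as adult minus larva on the log2(FPKM + 1) scale, which understates the change of genes at low levels, and a gene is called where the limma adjusted p is under 0.05. In this fit 6260 of 12013 genes were called (52.1%), of which 4165 (34.7% of genes tested) were higher in adults and 2095 (17.4%) higher in larvae. At a difference of at least 2, which is 4-fold on this scale, 1132 genes (9.42%) were higher in adults and 573 (4.77%) in larvae. The split between directions depended on scaling. The median difference of all genes was 0.28 on the FPKM as deposited and 0.03 after median-of-ratios scaling, with 3396 genes called higher in adults and 3000 in larvae after that scaling, so that adult-high genes went from 66.5% to 53.1% of the calls. Differences below are on the deposited FPKM and are read against that median of 0.28, and a direction is given for a single gene only where the call was the same after scaling, unless the scaled value is stated. With and without scaling, 5485 genes (45.7%) were called.

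The largest differences separated a few tissues' secreted and structural products. The 12 largest larva-high differences among genes whose groups do not overlap were the glue genes *Sgs3*, *Sgs5*, *Sgs7*, *Sgs8* and *Eig71Ee*, the larval cuticle genes *Lcp1*, *Lcp2*, *Lcp3* and *Lcp4*, the cuticle gene *Cpr78E*, the lysozyme gene *LysS* and *CG14265*, and they ran from -9.19 for *CG14265* to -11.17 for *Sgs3*. The 12 largest adult-high differences were *Met75Cb*, *Nplp3*, the accessory gland genes *Mst57Da* and *Mst57Db*, the muscle actins *Act79B* and *Act88F*, the yolk protein genes *Yp1* and *Yp2*, the eggshell gene *Vm34Ca*, the adult cuticle gene *Acp1*, *CG18628* and *CG7203*, from 10.93 for *CG7203* to 12.68 for *Met75Cb*. *Met75Cb* (3L:18469378-18469618) was listed at 0 in every larval library and at 9969.5, 7234 and 3914 FPKM in the adult libraries. Groups that do not overlap were a condition of choosing these 24 genes, and 58.7% of all genes tested met it.

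**Figure D1:**
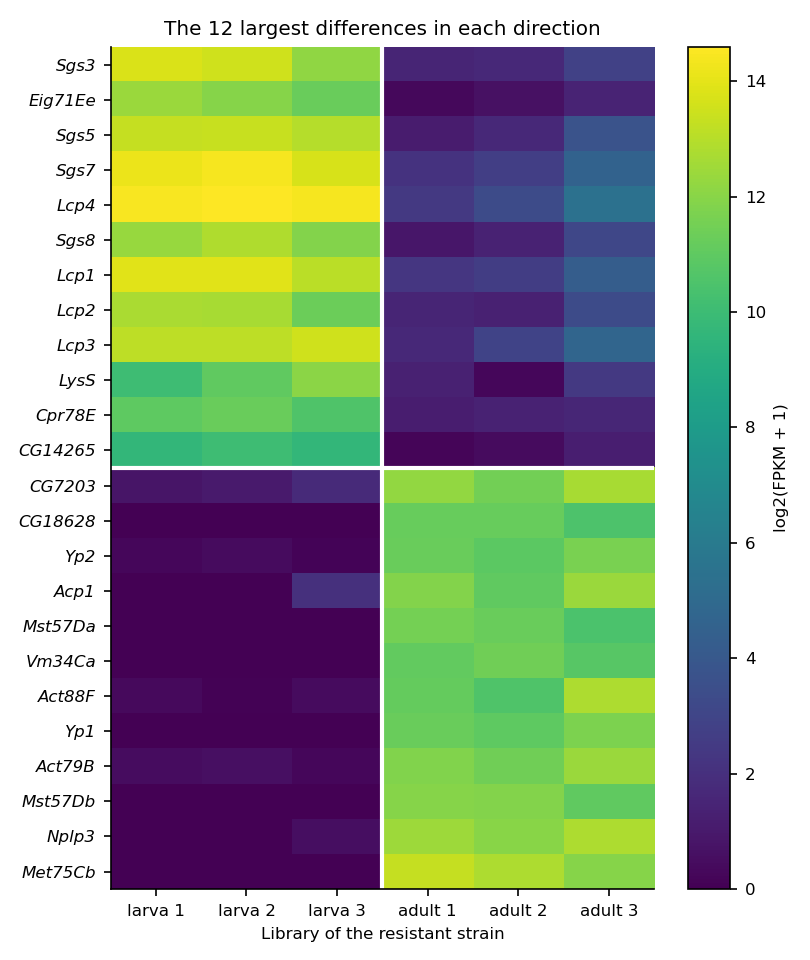
Colour gives log2(FPKM + 1) of the 12 genes with the largest difference in each direction (rows) in the 6 libraries of the resistant strain (columns), from 0 in dark blue to over 14 in yellow. The larva-high genes were at 819.9 FPKM or more in every larval library and at 42.81 or less in every adult library, where replicate 3 holds the highest value of each.

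Gene lists that follow known larval and adult tissues are described by their counts and by the median of their members, beside the median of 0.28 for all genes. The labelled stages carried their defining genes: storage protein, glue and larval cuticle genes led the larvae, and yolk, eggshell, seminal fluid, rhodopsin and flight muscle genes led the adults. Lists for the larva-high tissues had medians down to -9.58 and those for the adult-high tissues up to 10.99.

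**Figure D2:**
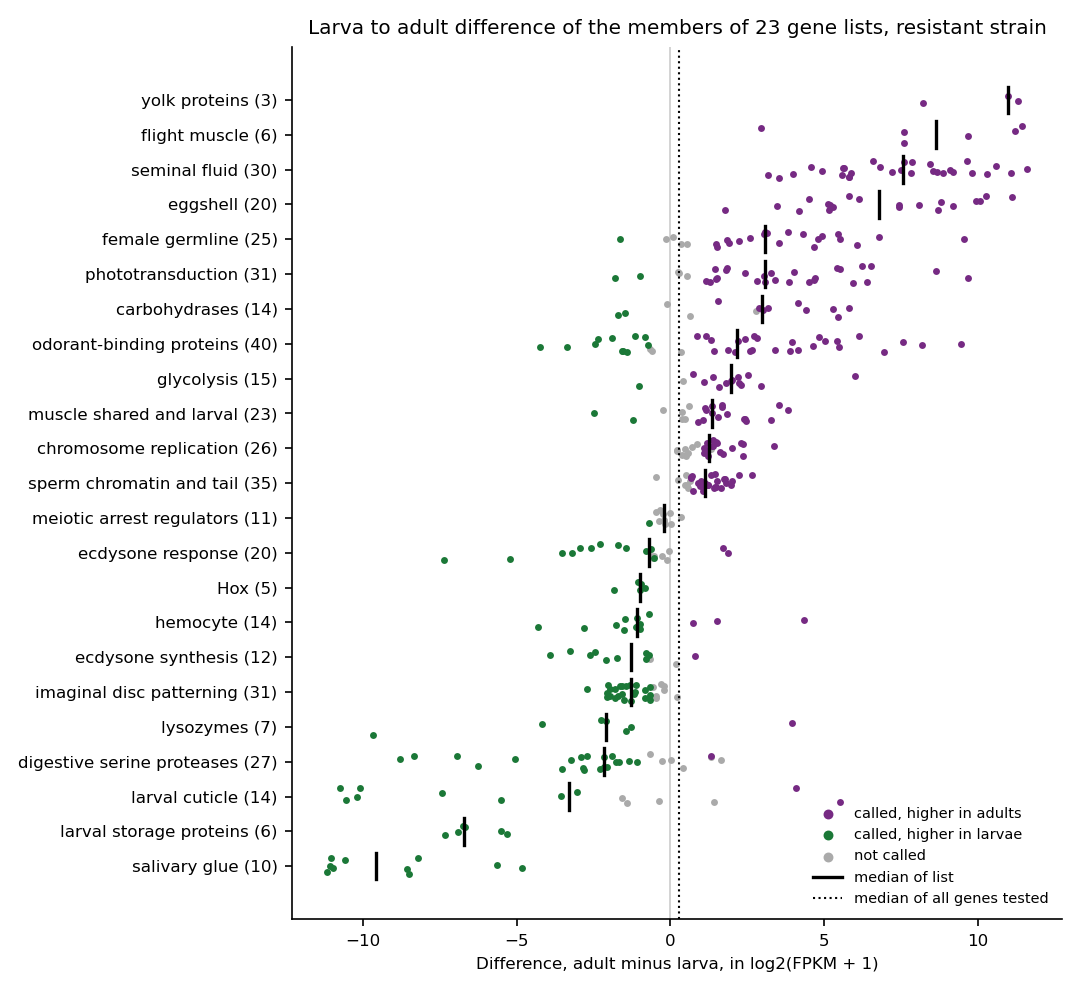
Each point is a tested member of 1 of 23 gene lists, with the number tested in brackets, at its difference between adults and larvae in log2(FPKM + 1). Black bars are list medians, the dotted line is the median of all genes tested (0.28), and colours give the call. The salivary glue list lies farthest to the larval side (median -9.58) and the yolk list farthest to the adult side (median 10.99).

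The storage proteins were far higher in larvae. The hexamers and their receptor are made by the larval fat body and later consumed by the developing adult, and 6 of 6 list members were called at least 4-fold higher in larvae (median -6.72). *Lsp2* (3L:12129393-12131869), a larval serum protein subunit, was at 12096, 12925 and 7816 FPKM in the 3 larval libraries and 86.5, 89.3 and 87.4 in the 3 adult libraries, a difference of -6.91 (SE 0.26, limma adjusted p = 2.36e-09). Larval library 3 was the lowest of the larvae, and the 2 stages did not approach each other. *Lsp1beta* and *Lsp1gamma*, subunits of the other hexamer, differed by -6.75 (SE 0.25) and -7.35 (SE 0.24), and *Lsp1alpha*, the third subunit of that hexamer, was the least abundant member in larvae at 227, 274 and 316 FPKM and differed by -5.33 (SE 0.23). The receptor gene *Fbp1* was at 6348, 5734 and 2585 FPKM in larvae and 64.2, 44.98 and 27.4 in adults (limma adjusted p = 1.34e-07), again with library 3 lowest in both stages. *Fbp2*, which encodes a fat body protein related to alcohol dehydrogenase, differed by -5.53 (SE 0.38). The list made up 2.66 to 4.04% of all FPKM in larvae and 0.0282 to 0.042% in adults. In whole-body samples such as these, fewer cells of a type and less RNA per cell cannot be told apart.

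The salivary glue genes showed the largest larva-high median of the lists. All 10 tested members were called at least 4-fold higher in larvae (median -9.58), and *Sgs4* was at or near 0 in all 6 libraries and was not tested. *Sgs3* encodes a mucin-like glue protein and was at 14065, 12058 and 4631 FPKM in larvae and 1.88, 2.16 and 6.1 in adults, a difference of -11.17 (SE 0.47, limma adjusted p = 6.55e-08). Its lowest larval value, in library 3, was still far above its highest adult value, also in library 3. *Sgs7* and *Sgs8*, neighbouring genes of similar sequence whose reads may be divided uncertainly, stood at 18605, 21896 and 13527 and 5234, 7496 and 3849 FPKM in larvae. *Eig71Ee*, a glue gene of the 71E ecdysone-induced cluster, differed by -11.08 (SE 0.35). *Sgs1* and *Sgs5* differed by -8.23 (SE 0.36) and -11.05 (SE 0.63).

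The early glue genes did not follow the late ones among the larval libraries. The ng (new-glue) genes are known to be transcribed in the salivary gland earlier in the third instar than the Sgs genes. *ng1* was at 18.2, 16.3 and 167 FPKM in larvae and *ng2* at 22.8, 30.7 and 164, with library 3 several times above the others, and *ng3* was at 386, 446 and 1009. In the same library *Sgs3*, *Sgs1*, *Sgs5*, *Sgs7*, *Sgs8*, *Sgs5bis* and *Eig71Ee* were at their lowest. *ng2* was listed at 0 in every adult library, and *ng1* at 0.18, 0.18 and 0.7 FPKM, a call that was lost without adult library 2. The list's summed level was 34547 to 57431 FPKM in larvae.

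Larval cuticle genes followed the same direction with exceptions inside the list. Of 14 tested members, 8 were at least 4-fold higher in larvae, 2 at least 4-fold higher in adults and 4 were not called (median -3.31). *Lcp4* was the most abundant gene of larval library 1 and stood at 22541, 24725 and 21347 FPKM in larvae against 4.29, 8.92 and 42.8 in adults, a difference of -10.76 (SE 0.74, limma adjusted p = 3.66e-05). *Lcp1* was at 15885, 15785 and 8635 FPKM in larvae and 3.86, 5.38 and 19 in adults, and *Lcp3* at 8989, 8912 and 11728 and 2.21, 6.66 and 26.6. For each of these 3 genes adult library 3 was the highest adult library. The same library was the highest of the adults for 10 of the 14 tested members of this list and for 9 of the 10 glue genes. *Lcp1* and *Lcp2* are near-identical neighbours, so their separate levels are uncertain. The 4 members not called, *Lcp65Ag1*, *Lcp65Ag2*, *Lcp65Ag3* and *Cpr47Eg*, were carried in larvae mainly by library 3. *Cpr47Eg* was at 0.21, 0.84 and 129.7 FPKM in larvae and 2.51, 0.45 and 1.99 in adults (95% interval of the difference -6.85 to 4.02). The adult-high members were *Cpr47Ea*, at 0.2, 0.31 and 0.1 FPKM in larvae and 56.9, 31.4 and 90 in adults, and *Cpr47Ef*, listed at 0 in every larval library and at 15.9, 13.9 and 18.8 in adults.

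The wider Cpr family, cuticle proteins with the Rebers and Riddiford chitin-binding domain, split between the stages. Of 50 tested members, 22 were called higher in adults and 21 in larvae, with 19 and 17 past 4-fold and 7 not called (median -0.43, and 0.15 without larval library 3). *Cpr78E* and *Cpr49Ac* led the larval side at 2011, 2406 and 1516 and 4136, 2983 and 1939 FPKM in larvae, with differences of -9.55 (SE 0.24) and -8.54 (SE 0.31). *Cpr12A* and *Cpr47Eb* followed at -6.15 (SE 0.24) and -5.12 (SE 0.31). On the adult side *Cpr49Ae* was at 0.35, 0.21 and 0.63 FPKM in larvae and 486, 270.01 and 842 in adults, a difference of 8.44 (SE 0.36, limma adjusted p = 7.9e-09), and *Cpr49Ab*, *Cpr97Eb* and *Cpr62Bb* differed by 6.21 (SE 0.30), 5.69 (SE 0.31) and 5.67 (SE 0.26). The cluster at 49A thus held members of both directions. Adult library 3 was the highest adult library for 33 of the 50 members and library 2 the lowest for 36.

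Genes named for the prepupal, pupal and adult cuticle were mostly higher in adults. Of 8 tested, 6 were called higher in adults and 2 in larvae (median 2.32). *Acp1*, an adult cuticle protein gene, was at 0, 0 and 3.03 FPKM in larvae and 3718, 2104 and 5444 in adults, a difference of 11.10 (SE 0.62, limma adjusted p = 7.7e-06). *Acp65Aa*, an adult cuticle gene of the 65A cluster, was listed at 0 in all larval libraries and at 790.4, 412 and 956 FPKM in adults. The larva-high members were *Pcp*, a pupal cuticle gene, at 842, 1079.8 and 909 FPKM in larvae and 7.85, 8.69 and 4.49 in adults, and *Edg91*, at 17.9, 19.5 and 13.5 and 0.79, 0.17 and 0.92. *Ccp84Aa* and *Ccp84Ab* differed by 2.62 (SE 0.31) and 3.33 (SE 0.38) at no more than 24.71 FPKM in any library. Of 8 tested Tweedle cuticle genes 2 were called higher in adults and 3 in larvae (median -0.12, -0.03 without larval library 3 and -0.32 without adult library 3), and 18 members were below the filter.

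Chitin and pigment genes were called in both directions. Genes for chitin synthesis, modification and breakdown formed a list of 29 with the chitin-binding genes *Gasp*, *obst-A*, *obst-B* and *obst-E* and the chitinase-like *Idgf1* to *Idgf6*. Of the 29, 6 were called higher in adults and 4 in larvae, where 34.7% and 17.4% of all genes tested were. The larval count was 8 when adult library 3 was left out and 2 when larval or adult library 2 was. The median was 0.10, and -0.09 without adult library 3. After scaling the balance turned, with 4 called higher in adults and 9 in larvae (median -0.16). *Cht10*, a chitinase, was at 114.83, 78.4 and 47.2 FPKM in larvae and 0.55, 0.41 and 0.43 in adults (limma adjusted p = 4.04e-08), and *Cda9*, a chitin deacetylase of the midgut lining, at 50.8, 77.2 and 64.8 and 0.55, 0.81 and 0.67. *Cht8*, another chitinase, lay on the adult side at 4.46 (SE 0.26). Of 14 tanning and pigment genes, 5 were called higher in adults and 4 in larvae (2 without larval library 1; median -0.15, 0.23 without larval library 3 and -0.43 without adult library 3). *Ddc*, the dopa decarboxylase of cuticle hardening, was at 163, 190.4 and 128 FPKM in larvae and 27.8, 27.4 and 30.9 in adults, a difference of -2.42 (SE 0.22, limma adjusted p = 4.18e-06). *yellow-f* was also higher in larvae (-3.64; SE 0.23). *yellow-g*, a gene of the eggshell, was higher in adults (5.04; SE 0.25), as was *t*, which encodes the hydrolase tan (2.47; SE 0.24). *ple*, the tyrosine hydroxylase, ranged from 26.03 to 174.97 FPKM among larvae alone, with library 2 lowest, and was not called (95% interval -2.48 to 1.55).

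The secreted digestive proteases were mostly higher in larvae. Of 27 tested trypsin and Jonah genes, which encode midgut serine proteases, 20 were called higher in larvae, 15 of them at least 4-fold, and 6 were not called (median -2.16). *Jon66Ci* was at 3242, 5321 and 7905 FPKM in larvae and 46.8, 76.03 and 83.8 in adults, a difference of -6.25 (SE 0.35, limma adjusted p = 5.44e-08). *Jon65Aiv* stood at 8582, 10622 and 11124 and 878, 762.14 and 1751, and *Jon99Ciii*, the most abundant member in larval libraries 1 and 2, at 9162, 11895 and 10975 and 2387, 2099 and 2668. Larval library 1 was the lowest larval library for 25 of the 27 members. The trypsins *deltaTry* and *gammaTry* were at 2809, 2993 and 5567 and 1718, 2967 and 3565 FPKM in larvae, and both were listed at the same adult values of 10.04, 7.88 and 4.24, and how reads were divided between these similar copies is not known. *alphaTry* and *betaTry*, of the same cluster, were not called, with 95% intervals of -0.25 to 1.06 and -0.68 to 0.71. *Jon99Ci* was called higher in adults (1.33; SE 0.33) but not after scaling, and 3 members were called in that direction without larval library 3.

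Gut lysozymes split by gene. These enzymes digest bacterial cell walls in the midgut, and 6 of 7 were called higher in larvae, 4 of them at least 4-fold (2 without larval library 3 or without adult library 1), and 1 in adults. *LysS* was at 1049, 2075 and 4279 FPKM in larvae and 1.57, 0.21 and 4.45 in adults, a difference of -9.68 (SE 0.70, limma adjusted p = 5.17e-05). *LysX* was at 45.5, 58.7 and 17.8 and 1.33, 0.81 and 1.13. *LysP*, which is known from the adult salivary gland, took the other direction at 12.7, 18.5 and 19 FPKM in larvae and 309.9, 275 and 227 in adults (limma adjusted p = 1.04e-07). *LysB*, *LysC*, *LysD* and *LysE* have similar sequences and differed by -1.28 to -2.25, with *LysD* not called when larval library 2 was left out.

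Genes for enzymes that release sugars were mostly higher in adults. Of 14 tested amylases and maltases, 9 were called higher in adults, 8 of them at least 4-fold, and 2 in larvae (median 2.97). *Amy-p*, an alpha-amylase, was at 14.8, 29.8 and 31.3 FPKM in larvae and 1355, 1153 and 1777 in adults, a difference of 5.81 (SE 0.31, limma adjusted p = 3.64e-08). *tobi*, a glucosidase gene induced by dietary protein, was at 1.45, 1.49 and 2.42 and 96.7, 137 and 134, and *Mal-A1*, a maltase, at 5.89, 7.07 and 3.43 and 181, 218 and 370.5. The larva-high members were *Mal-A5*, at 222, 252 and 168 FPKM in larvae and 74.7, 80.6 and 71.5 in adults, and *Amyrel*, a divergent amylase (-1.69; SE 0.30). The protease and sugar lists thus lay on opposite sides of the median of all genes, at -2.16 and 2.97.

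Ecdysone synthesis in *Drosophila* runs through P450 enzymes of the larval ring gland, named after the Halloween mutants, and a final hydroxylation in peripheral tissue. Of 12 tested genes of synthesis and turnover, 9 were called higher in larvae, 5 of them at least 4-fold, and 1 in adults (median -1.27). *shd*, the peripheral enzyme that makes the active hormone, was at 40.2, 34.6 and 26.7 FPKM in larvae and 1.21, 1.24 and 1.44 in adults, a difference of -3.91 (SE 0.23, limma adjusted p = 1.04e-07). *sad* was at 32.2, 46.99 and 23.3 and 3.38, 2.77 and 1.62, *spok* at 4.87, 2.72 and 7 and 0.05, 0.05 and 0, and *phtm*, the gene called phantom, at 7.98, 12.9 and 9.68 and 2.24, 1.97 and 2.65. *Eo*, an ecdysone oxidase that inactivates the hormone, was higher in larvae as well (-2.63; SE 0.28). *Cyp18a1*, which also inactivates it, was called higher in adults (0.79; SE 0.27) but not after scaling, where no member was, nor when larval library 1 or 2 or adult library 1 was left out. *nvd*, *ouib* and *spo* were below the filter.

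The receptor and early response genes were more often higher in larvae than in adults. Of 20 tested, 12 were called higher in larvae, 7 of them at least 4-fold, 2 in adults and 6 were not called (median -0.71). *br*, the early gene Broad, was at 104, 52.6 and 56.01 FPKM in larvae and 0.9, 0.68 and 0.9 in adults, a difference of -5.23 (SE 0.28, limma adjusted p = 4.49e-08). *ImpE2*, induced in discs by the hormone, was at 292, 233 and 209 and 1.26, 0.36 and 0.05. *EcR*, the receptor, was at 33.3, 14.2 and 25.2 and 3.34, 5.28 and 3.3 (limma adjusted p = 0.000109), while *usp*, its partner, was at 24.1, 22.4 and 19 and 19.9, 26.2 and 18.04 (95% interval of the difference -0.55 to 0.47). *Eip74EF* and *Eip75B* differed by -2.59 (SE 0.30) and -1.44 (SE 0.29). The adult-high members were *ftz-f1*, a nuclear receptor of the prepupal period, at 1.31, 0.77 and 1.39 and 5.55, 7.18 and 5.35, and *Eip93F*, a specifier of adult identity in metamorphosis, at 1.39, 0.43 and 1.12 and 6.85, 5.04 and 6.76.

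Juvenile hormone, the second hormone of molting, showed a mixed list. Of 10 tested genes 4 were called higher in adults and 1 in larvae, with 2 in larvae when larval library 1 or adult library 3 was left out (median 0.20, 0.31 without larval library 3 and -0.05 after scaling). These counts are near the shares of all genes tested, 34.7% and 17.4%. *jhamt*, the last enzyme of its synthesis, was at 1.5, 1.67 and 1.24 FPKM in larvae and 6.03, 5.64 and 8.73 in adults (limma adjusted p = 0.000101), and *Jhe*, an esterase that degrades it, differed by 1.12 (SE 0.22). *Kr-h1*, the target gene that opposes metamorphosis, was higher in larvae (-1.45; SE 0.34). The receptor genes *Met* and *gce* were not called, with 95% intervals of -0.35 to 0.59 and -0.88 to 0.36.

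Patterning genes of the imaginal discs were mostly higher in larvae. Of 31 tested, 24 were called higher in larvae, 0 in adults and 7 were not called (median -1.28). Of the 31, 4 passed 4-fold in larvae, and 2 when larval library 1 or adult library 2 was left out, where 4.77% of all genes did. The proneural genes *sc* and *ac* were at 7.17, 4.05 and 6.46 and 3.31, 2.3 and 4.13 FPKM in larvae, and *ac* was listed at 0 in every adult library, as was *ato*, the proneural gene of the eye. *hh*, the secreted signal of posterior compartments, was at 7.81, 6.85 and 6.13 and 0.83, 0.74 and 1.2 (limma adjusted p = 9.61e-06), and its effector *ci* at 15.4, 6.79 and 14.6 and 2.04, 1.47 and 2.84. *wg* differed by -1.96 (SE 0.19). *dpp*, another secreted signal, was not called at 3.99, 2.45 and 3.5 and 2.92, 2.08 and 3.22 (95% interval -0.71 to 0.30), and neither were the eye genes *eya* (-0.29 to 0.71) and *so* (-0.78 to 0.18). Larval library 1 was the highest larval library for 28 of the 31. All 5 tested Hox genes, *Scr*, *Antp*, *Ubx*, *abd-A* and *Abd-B*, were called higher in larvae, from -0.82 for *Ubx* to -1.85 for *abd-A*, and the other 3 were below the filter. *Ubx* was not called when larval library 1 or 3 or adult library 2 was left out.

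Blood cell genes were mostly higher in larvae. Of 14 tested hemocyte genes 11 were called higher in larvae and 3 in adults (median -1.09). *NimC2* was at 66.2, 58.5 and 32.7 FPKM in larvae and 1.71, 0.97 and 2.21 in adults, a difference of -4.31 (SE 0.31, limma adjusted p = 4.66e-07), and the phagocytosis receptor *eater* at 7.79, 2.71 and 5.05 and 0.67, 0.47 and 1.09. *Hml*, a widely used plasmatocyte marker, was at 6.03, 4.37 and 2.76 and 2.02, 1.94 and 2.89 (limma adjusted p = 0.0478), a call lost when larval library 1 or 2 or adult library 1 or 2 was left out. *NimC4*, a related phagocytosis receptor, went the other way at 0, 0.07 and 0 and 19.4, 15.8 and 24.7 (limma adjusted p = 2.94e-08). *PPO1* and *PPO2*, the crystal cell phenoloxidases, differed by -1.51 (SE 0.30) and -1.13 (SE 0.27). Of 9 basement membrane genes 5 were called higher in larvae and 3 in adults. Among all genes tested 17.4% and 34.7% were, so the adult count is near the general share. The laminin genes *LanA*, *LanB1* and *LanB2*, with *Ndg* and *trol*, were higher in larvae (differences of -1.44 for *LanB1* to -0.95 for *Ndg*; *trol* was not called when larval or adult library 1 or 2 was left out), whereas the collagen IV genes *Col4a1* and *vkg* differed by 0.81 (SE 0.30) and 1.38 (SE 0.28). Of the 3 called higher in adults in this list of 9 only *vkg* was called after scaling, and 1 was called when larval or adult library 1 was left out. *Col4a1* was not called when any library other than adult library 2 was left out.

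The yolk protein genes, expressed in the adult female fat body and ovarian follicle cells, headed the adult lists. *Yp1* (X:10053811-10055498) was listed at 0 in every larval library and at 2417, 2041 and 3361 FPKM in adults, and *Yp2* was at 0.21, 0.32 and 0.11 and 2417, 1939.99 and 3197, a difference of 10.99 (SE 0.24, limma adjusted p = 1.4e-10). *Yp3* was at 6.7, 6.2 and 4.62 in larvae and 1909, 1572 and 2766 in adults. All 3 were highest in adult library 3 and lowest in library 2.

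Genes of the eggshell, which the follicle cells secrete in layers, were higher in adults without exception: 20 of 20 were called and 19 of them passed 4-fold (median 6.79). The vitelline membrane genes, which act first, included *Vm34Ca*, listed at 0 in all larval libraries and at 2212, 2729.9 and 1769.8 FPKM in adults, and *Vm26Aa*, at 0.27, 0 and 0 and 1462, 1750.04 and 944 (limma adjusted p = 2.41e-10). The chorion genes, expressed later in oogenesis and amplified in follicle cells, included *Cp36* at 0.08, 0.08 and 0.3 and 600.1, 1012 and 521 and *Cp38* at 774, 1519.6 and 836 in adults. The late chorion genes *Cp16*, *Cp18* and *Cp19* spread more widely among the adults, with *Cp19* at 241, 958 and 382 and library 1 lowest. *ndl*, which encodes a protease of embryonic patterning, was called below 4-fold (1.78; SE 0.18). Adult library 2 was the highest adult library for 18 of the 20 genes.

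The female germline and maternal genes were mostly higher in adults with a wide spread among the adult libraries. Of 25 tested, 20 were called higher in adults, 16 of them at least 4-fold, 1 in larvae and 4 were not called (median 3.08). *dhd*, the maternal thioredoxin of the egg, was at 0.99, 0.66 and 1.54 FPKM in larvae and 1769.6, 3377 and 608 in adults, a difference of 9.56 (SE 0.58, limma adjusted p = 6.8e-06). *osk*, the localized determinant of the germ plasm, was at 0, 0 and 0.03 and 123, 169 and 65.5, and *nanos* at 0.59, 0.4 and 0.66 and 79.99, 143 and 29.9. The cell cycle regulators of the early embryo *png*, *plu* and *gnu* differed by 4.33 (SE 0.50), 4.68 (SE 0.52) and 6.08 (SE 0.59). The piRNA pathway genes *piwi*, *aub* and *vas* differed by 3.15 (SE 0.24), 3.04 (SE 0.27) and 3.83 (SE 0.30). *bam*, the differentiation factor of germ cells that is active in both sexes, was the larva-high member at 19.2, 18.7 and 15.7 FPKM in larvae and 5.19, 10.8 and 1.92 in adults (limma adjusted p = 0.00852). *stau*, *BicD*, *bgcn* and *grk* were not called.

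**Figure D3:**
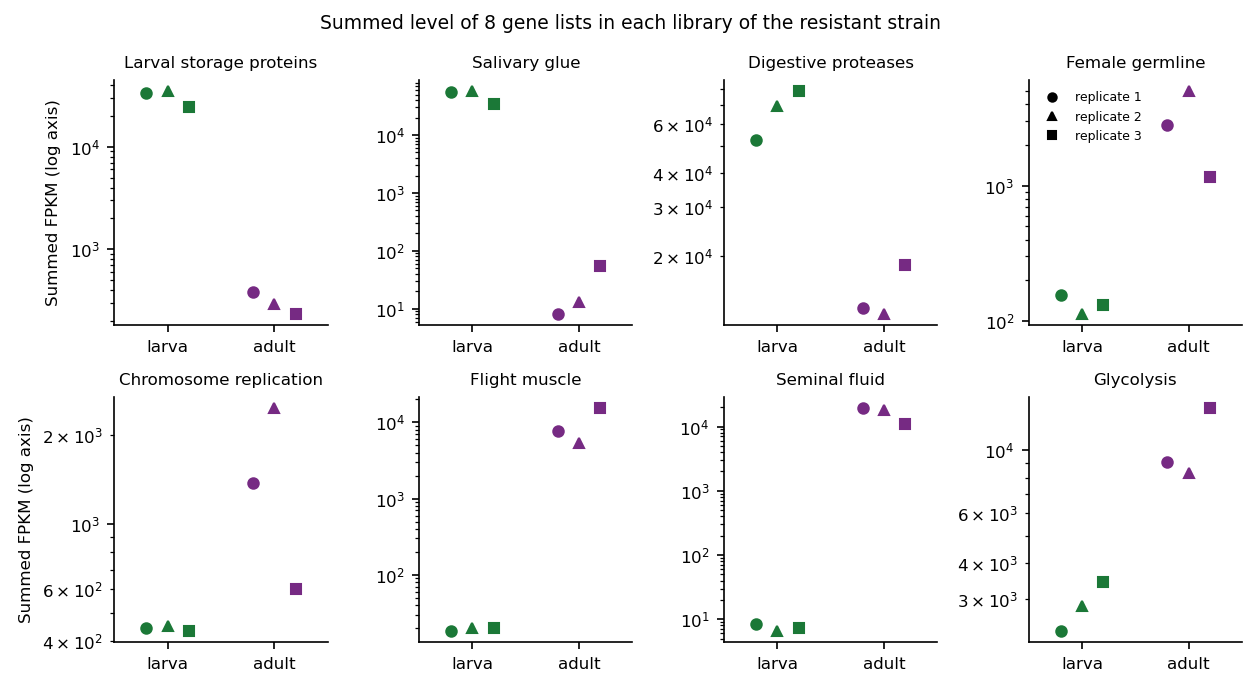
Summed FPKM of 8 gene lists in each library of the resistant strain, on log axes that differ between panels; marker shapes give the replicate number. Adult replicate 3 (square) is the lowest adult library for the female germline, replication and seminal fluid lists and the highest for flight muscle and glycolysis.

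Chromosome replication and mitosis genes were mostly higher in adults, with the same order of adult libraries throughout the list. Of 26 tested, 17 were called higher in adults (14 after scaling) and 0 in larvae (median 1.26). The count was 26 when adult library 3 was left out and 8 to 10 when adult library 1 or a larval library was. *CycB*, a mitotic cyclin, was at 26.97, 23.4 and 24.3 FPKM in larvae and 272, 492 and 137 in adults, a difference of 3.36 (SE 0.39, limma adjusted p = 4.72e-05). *CycE* was at 5.88, 2.54 and 4.21 and 26.01, 55.95 and 10.6, and *RnrS*, a ribonucleotide reductase subunit, at 30.2, 33.98 and 36.7 and 156, 289 and 59.3. *PCNA*, the replication clamp, was at 38.3, 44.3 and 46.2 and 119, 176 and 45.9 (limma adjusted p = 0.0374), with adult library 3 inside the larval range and no call when any other library was left out. For all 26 genes adult library 2 was the highest adult library and library 3 the lowest, and library 3 was the lowest for 22 of the 25 female germline genes. The summed level of the germline list was 2810.5, 4960.3 and 1155 FPKM in adult libraries 1, 2 and 3, and its part in the replication counts was not tested.

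The third-instar testis already holds spermatocytes, whereas sperm tails and sperm chromatin belong to later cells. The meiotic arrest regulators, which switch on the transcription program of spermatocytes, gave few calls: 0 of 11 were called higher in adults, 1 in larvae and 10 were not called (median -0.20). *aly*, which gives its name to 1 class of these regulators, was at 1.86, 2.38 and 2.32 FPKM in larvae and 2.93, 2.07 and 1.66 in adults (95% interval of the difference -0.46 to 0.46), *sa* at 3.96, 3.79 and 5.54 and 3.34, 3.83 and 3.88 (-0.68 to 0.28) and *topi* at 2.63, 3.13 and 3.4 and 2.25, 2.3 and 2.7 (-0.68 to 0.19). After scaling 3 of the 11 were called higher in larvae, and *vis* was the member called in both, though not when larval library 3 or adult library 1 was left out. *can* and *comr* were below the filter.

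Genes for sperm chromatin and the sperm tail were called higher in adults for 28 of 35 members, 24 of them after scaling, but 3 passed 4-fold, 1 after scaling (median 1.14). *Mst84Db*, of a cluster of sperm tail genes, had the largest difference at 31.2, 39.6 and 54.9 FPKM in larvae and 285, 306 and 214 in adults (limma adjusted p = 6.96e-06). *Mst77F*, a sperm chromatin protein, was at 45.8, 34.6 and 54.8 and 83.1, 84.3 and 92.4 (0.95; SE 0.23), and the protamine genes *ProtA* and *ProtB*, near-identical copies, differed by 1.23 (SE 0.23) and 1.01 (SE 0.25). *betaTub85D*, the testis beta-tubulin, was at 47.9, 45 and 52.3 and 124, 135 and 131. The sperm leucyl aminopeptidases *S-Lap1* and *S-Lap7* differed by 1.81 (SE 0.21) and 1.79 (SE 0.21). The late, post-meiotic cup genes *t-cup* and *r-cup* were not called, and *fzo*, the mitofusin of the spermatid, lay on the larval side (-0.47; SE 0.23) and was called only after scaling, then as higher in larvae.

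The seminal fluid genes, products of the male accessory gland and ejaculatory organs, were called at least 4-fold higher in adults for 30 of 30 members (median 7.56). *Mst57Db* was listed at 0 in all larval libraries and at 3876, 3726 and 2119 FPKM in adults. *SP*, the sex peptide that alters female behaviour after mating, was listed at 0 in larvae and at 481, 674 and 215 in adults, and *Acp36DE*, which acts in sperm storage, was at 0.14, 0.06 and 0.09 and 139.99, 102 and 135. *EbpII* and *Ebp*, of the ejaculatory bulb, were also listed at 0 in larvae and stood at 1548, 1552 and 827 and 1679, 1603 and 1392 in adults. *antr*, a cysteine-rich secretory protein gene, had the smallest difference (3.17; SE 0.26). Adult library 1 was the highest for 23 and library 3 the lowest for 24 of the 30. The list held 1.29 to 2.11% of all FPKM in adults and 0.00072 to 0.00101% in larvae. Libraries of adults thus held yolk, eggshell and seminal fluid transcripts together, and no label separates the sexes.

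The adult eye was visible in the phototransduction genes, of which 26 of 31 were called higher in adults, 19 of them at least 4-fold, and 2 in larvae (median 3.07). *ninaE*, the opsin of the outer photoreceptors, was listed at 0 in all larval libraries and at 983, 659 and 859 FPKM in adults (limma adjusted p = 1.43e-10). The inner photoreceptor opsins *Rh3* and *Rh4* were at 0, 0 and 0.06 and 0.31, 0.19 and 0.55 in larvae and 84.9, 64.6 and 79.4 and 95.3, 72.3 and 77.1 in adults. *Rh5* and *Rh6*, which the larval eye organ also uses, were at 1.36, 1.42 and 1.42 and 2.14, 3.61 and 4.95 in larvae and 24.7, 14.1 and 19.1 and 41.6, 30.3 and 37.4 in adults, with differences of 3.05 (SE 0.25) and 3.07 (SE 0.28). *Rh2*, the opsin of the ocelli, was at 0, 0.06 and 0.06 and 10.6, 10.2 and 9.6. The order of the opsins' differences was *ninaE*, *Rh3*, *Rh4*, *Rh2*, *Rh6* and *Rh5*, and the last 2 differed by less than their standard errors.

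Downstream of the opsins, *Arr2*, the main arrestin, was at 0.27, 0.38 and 0.27 FPKM in larvae and 591, 433 and 547 in adults, and *Gbeta76C*, the eye-specific G protein subunit, at 0.17, 0.57 and 0.51 and 147, 93.7 and 118. The channel genes *trp* and *trpl* differed by 5.42 (SE 0.24) and 4.69 (SE 0.22). *norpA*, the phospholipase C, which is used outside the eye as well, differed by 1.84 (SE 0.25). The members higher in larvae, *pinta* and *santa-maria*, take part in retinoid and carotenoid handling outside the photoreceptors and differed by -1.79 (SE 0.22) and -0.99 (SE 0.32), the second not called when larval library 1 or 3 or adult library 1 was left out. Of 11 tested eye pigment and lens genes 6 were called higher in adults and 2 in larvae (median 0.70). Among all genes tested 34.7% and 17.4% were, so the larval count is near the general share. *Crys*, the lens protein drosocrystallin, was listed at 0 in larvae and at 15.4, 8.26 and 33.1 FPKM in adults, and *se*, of the red pigment pathway, differed by 4.25 (SE 0.28). *w*, the pigment transporter also used in larval Malpighian tubules, was higher in larvae (-0.70; SE 0.24), a call lost when larval or adult library 1 or 2 was left out.

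Odorant-binding proteins, a family of secreted proteins, were more often higher in adults. Of 40 tested, 26 were called in adults, 11 in larvae and 3 not called (median 2.16). Whole-body libraries do not show which tissue expressed them. *Obp56g* was at 0, 0 and 0.53 FPKM in larvae and 967, 886 and 619 in adults, and *Obp19d* at 0, 0 and 0.14 and 326, 302 and 286 (limma adjusted p = 2.63e-10). *Obp83a* and *lush*, of antennal hairs, differed by 6.15 (SE 0.22) and 2.71 (SE 0.20). *Obp99b* was the most abundant member in larvae at 5460.4, 7999 and 4232 FPKM and stood at 409, 361 and 187 in adults (-4.23; SE 0.34). *Orco*, the co-receptor of the odorant receptors, was at 0.17, 0.19 and 0.13 and 5.04, 5.13 and 5.35 (limma adjusted p = 4.85e-07). Of 57 odorant receptor genes, including *Orco*, 54 were below the filter at this depth.

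Genes of the flight and jump muscle of the adult and genes shared by all muscles were described apart. All 6 flight and adult muscle genes were called at least 4-fold higher in adults (median 8.64). *Act88F*, the flight muscle actin, was at 0.31, 0.06 and 0.32 FPKM in larvae and 2286, 1546 and 7069 in adults, a difference of 11.22 (SE 0.49, limma adjusted p = 1.72e-07), and adult library 3 was the highest. *fln*, the thick-filament protein flightin, was at 0.16, 0.16 and 0.24 and 1079.9, 545 and 1547. Of 23 shared and larval muscle genes 16 were called higher in adults (12 after scaling) and 2 in larvae (median 1.36). *Mhc*, the single muscle myosin heavy chain gene, was at 48.9, 44.6 and 119 and 616, 418 and 952 (limma adjusted p = 8.05e-05). Adult library 2 was the lowest adult library for 22 of these 23, and larval library 3 the highest larval library for 18.

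Copies within gene families differed in their stage difference, shown here with examples named after their values were seen. Among the actins *Act57B*, of larval and adult body wall muscle, was at 1465, 1479 and 2566 FPKM in larvae and 1379.8, 1092 and 2198 in adults and was not called (95% interval -0.97 to 0.47), whereas *Act79B*, of the leg and jump muscle, was at 0.38, 0.5 and 0.21 and 3623, 2787 and 5506. Among the troponin C genes *TpnC73F* was higher in larvae at 852, 779.7 and 1024 and 174, 127 and 168 (limma adjusted p = 5.77e-06), and the flight muscle isoforms *TpnC4* and *TpnC41C* were higher in adults (differences of 7.59 and 7.60). *TpnC25D* differed by 3.84 (SE 0.69), with larval library 3 at 101.31 FPKM against 14.78 and 20.26 in the others. Among the tubulins *alphaTub84B*, the general form, was at 1145, 1150.3 and 996 and 1050.3, 1090.02 and 956 (95% interval -0.58 to 0.41), *alphaTub67C*, the maternal form, at 0.05, 0.21 and 0.05 and 192, 327 and 68.2 (limma adjusted p = 2e-06), and *betaTub60D*, known from developing muscle and chordotonal organs, was higher in larvae (-1.95; SE 0.23). Of the 8 tubulin genes 5 were called higher in adults and 1 in larvae (median 1.10).

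**Figure D4:**
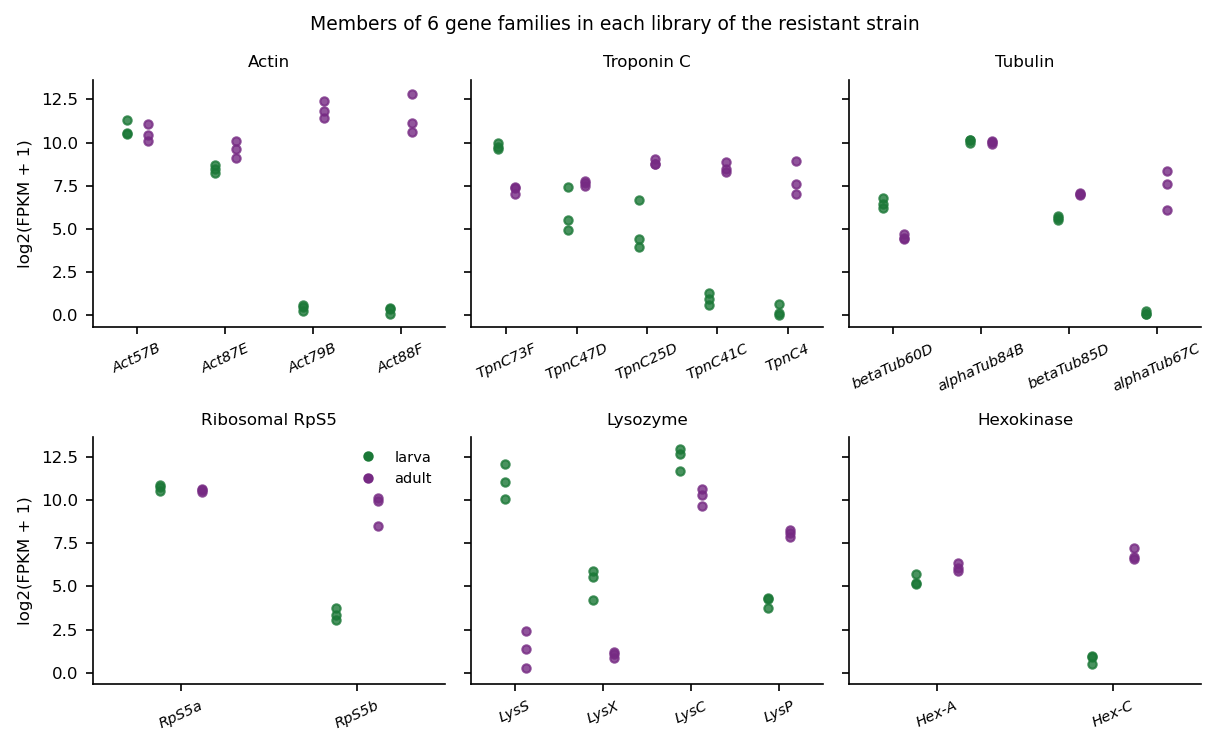
log2(FPKM + 1) of members of 6 gene families in each of the 3 larval (green) and 3 adult (purple) libraries of the resistant strain. Copies at similar levels in both stages, such as Act57B and RpS5a, lie beside copies near 0 in larvae and high in adults, such as Act79B and alphaTub67C, and LysS is near 0 in adults only.

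Ribosomal protein genes gave few calls apart from a paralog. Of 85 tested, 12 were called higher in adults and 0 in larvae (median 0.27, that of all genes being 0.28), 4 in each direction after scaling. The count was 32 without adult library 3, with a median of 0.46, and 3, 5 and 7 without adult library 1, adult library 2 and larval library 1. *RpS5b*, the germline copy of a small subunit protein, was at 7.25, 9.2 and 12.5 FPKM in larvae and 996, 1100.1 and 362 in adults, a difference of 6.14 (SE 0.40, limma adjusted p = 6.63e-07), with library 3 lowest of the adults as for the germline genes. Its general copy *RpS5a* was at 1488, 1858 and 1713 and 1589, 1391 and 1538 (95% interval of the difference -0.67 to 0.35). Of 13 mitochondrially encoded genes 4 were called higher in adults, 2 after scaling (median 0.44, 0.68 without larval library 3 and 0.14 without adult library 3). Among all genes tested 34.7% were called in that direction, so the count is near the general share.

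Genes of the glycolysis list were mostly higher in adults, with 13 of 15 called in that direction and 1 in larvae (median 1.96). Of the 13, 7 were at least 4-fold higher (4 after scaling). The 15 include *ERR*, a nuclear receptor gene and not an enzyme gene. *Gpdh1*, the glycerol 3-phosphate dehydrogenase of the flight muscle shuttle, was at 84.6, 98.7 and 169 FPKM in larvae and 761, 584 and 1482 in adults, a difference of 2.95 (SE 0.37, limma adjusted p = 5.26e-05). *Pglym78*, *PyK* and *Eno* differed by 2.52 (SE 0.28), 2.31 (SE 0.24) and 2.24 (SE 0.27). *Hex-C*, a hexokinase of the fat body and gut, was at 0.44, 0.89 and 1 and 103, 96.7 and 147, while *Hex-A*, the general form, differed by 0.75 (SE 0.24) and was not called after scaling or when larval library 2 or 3 or adult library 1 was left out. *Ldh*, the lactate dehydrogenase that marks larval growth metabolism, was higher in larvae at 48.8, 58.6 and 113 and 34.7, 24.7 and 43.7 (limma adjusted p = 0.0219), a call that was not kept without larval library 3, adult library 1 or adult library 2. Adult library 3 was the highest adult library for 13 of the 15.

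Detoxification genes were called in both directions. A list of 79 tested genes held P450 genes and, through its symbol, the cyclophilin gene *Cyp1*. Of these 79, 32 were called higher in adults and 21 in larvae, with 10 and 7 past 4-fold (median 0.26). Among all genes 34.7% and 17.4% were called, with a median of 0.28. *Cyp4g1*, an oenocyte enzyme of cuticular hydrocarbon synthesis, was at 76.7, 82.5 and 77.97 FPKM in larvae and 1417, 1379.7 and 2029 in adults (limma adjusted p = 5.12e-08). *Cyp313a1* was listed at 0 in larvae and at 36.1, 28.9 and 54.7 in adults, and *Cyp4d1* was higher in larvae at 134, 196 and 167 and 3.93, 4.93 and 16.3. *Cyp304a1* and *Cyp310a1* were also higher in larvae (differences of -3.44 and -2.46). Of 34 glutathione transferases 20 were called higher in adults and 2 in larvae, with 6 past 4-fold in adults and 10 when larval library 3 was left out (median 0.94). *GstE6* was at 5.22, 6.7 and 10.4 and 172, 213 and 116, *GstE9* at 4.85, 6.69 and 14.9 and 82.1, 79.7 and 149, and *GstS1*, a transferase abundant in flight muscle, at 187, 180.3 and 163 and 739.5, 542 and 1441 (limma adjusted p = 0.000183).

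Antimicrobial peptides of the fat body and epithelia were split, with 8 of 16 called higher in adults and 5 in larvae (3 without adult library 2; median 1.06). *Drsl4*, of the drosomycin family, was at 0, 0 and 0.56 FPKM in larvae and 215, 293 and 105 in adults, and *Drs* itself at 70.03, 91.4 and 40.1 and 460.3, 576 and 184 (limma adjusted p = 0.00113). *Def* and *CecA1* differed by 4.31 (SE 0.70) and 3.94 (SE 0.36). On the larval side *Mtk*, the antifungal metchnikowin, was at 27.3, 31.2 and 22.3 and 5.68, 4.08 and 3.67 (limma adjusted p = 1.12e-05), and *Drsl5* differed by -1.65 (SE 0.38).

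Neural and hormonal genes were called in both directions. Of 15 tested neuronal genes 9 were called higher in adults and 2 in larvae, with 4 in larvae when larval library 2 was left out (median 0.78). *Gad1*, the enzyme of GABA synthesis, was at 1.11, 0.75 and 1.13 FPKM in larvae and 15.9, 13.04 and 18.9 in adults (limma adjusted p = 6.39e-07), whereas *Syt1*, the calcium sensor of synaptic vesicles, was higher in larvae at 22.4, 24.1 and 21.9 and 4.04, 2.36 and 5.22. Of 31 neuropeptide genes 13 were called higher in adults (8 after scaling, and 7 without adult library 1) and 5 in larvae (median 0.41). The shares over all genes tested were 34.7% and 17.4%, near these counts. *Nplp3* was at 0, 0 and 0.48 FPKM in larvae and 5571, 4049 and 7262 in adults, a difference of 12.23 (SE 0.27, limma adjusted p = 1.4e-10), and *Nplp4* was higher in larvae (-3.97; SE 0.40). Of 6 tested insulin-like peptide genes *Ilp6*, the fat body form, was at 73.3, 44.96 and 63.6 in larvae and 12.9, 9 and 9.11 in adults, and *Ilp2* and *Ilp5*, of brain neurosecretory cells, were higher in adults (differences of 1.31 and 1.42). *Ilp8*, which signals disc damage and is also ovarian, varied from 0.49 to 32.01 FPKM among larvae and from 5.22 to 40.59 among adults and was not called. Of 11 clock genes 7 were called higher in adults and 1 in larvae (median 0.96), with 3 in larvae without larval library 2 and 3 after scaling. *cry*, the blue-light receptor, was at 2.35, 2.36 and 1.09 and 78.9, 59.3 and 69.8 (limma adjusted p = 6.08e-08). *vri*, a repressor of the clock and the larva-high member, was at 50.9, 39.2 and 34.6 and 8.3, 5.42 and 13.9. The sample descriptions give no hour of collection, so for clock genes stage and hour cannot be told apart.

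Genes of sex determination and dosage compensation gave few calls. Of 12 tested 0 were called higher in adults and 1 in larvae (4 without larval library 2, and 5 after scaling; median -0.02, and 0.25 without adult library 3). *msl-2*, the limiting subunit of the male dosage compensation complex, was at 6.12, 4.79 and 6.31 FPKM in larvae and 1.99, 2.25 and 2.52 in adults (limma adjusted p = 0.00153). *Sxl* was at 19.6, 8.96 and 20 and 10.9, 13.1 and 9.68 (95% interval of the difference -1.10 to 0.25) and *tra* at 12.7, 10.98 and 10.8 and 14.7, 14.97 and 10.2 (-0.33 to 0.70).

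Genes seen at a single stage were more often adult. At 0 FPKM in every library of 1 stage and at least 10 FPKM in each library of the other, 140 genes were adult and 10 were larval. The 10 were *CG11349*, *CG14237*, *CG14332*, *CG42728*, *CG42779*, *CG43084*, *CG4367*, *CG7465*, *Cpr65Aw* and *ng2*, named here because the count is small. With a ceiling of 1 FPKM in place of 0 the counts were 336 and 92. A value of 0 is a limit of depth, since 1 read in a transcript of 1000 bases is worth 0.0784 to 0.0893 FPKM in these libraries.

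Some neighbouring tested genes all passed 4-fold in the same direction (Ensembl annotation of dm6), and whether such runs are longer than chance gives was not tested. The longest adult-high run held 9 Bomanin genes, short immune peptides, at 2R:18382704-18390629, with *BomS2* at 0.49, 0 and 0.24 FPKM in larvae and 303, 243 and 377 in adults. Others held the chorion genes *Cp7Fa* to *Cp38* with *otu* (6 genes, X:8470888-8489535), the vitelline membrane genes with *psd* (6 genes, 2L:5956489-5967752) and 6 genes around *Acp26Aa* (2L:5883741-5893896). The longest larva-high run held 8 genes from *obst-F* to *CG17147* at 3L:20200443-20225324, among them *CG7298* at 443, 531 and 497 FPKM in larvae and 0.61, 0.8 and 1.06 in adults. The ng cluster with *CG14265* formed a run of 5 at X:3236130-3249289. A run of 6 histone genes is uncertain, since these copies share their sequence.

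By chromosome arm, 8.64 to 10.5% of tested genes on X, 2L, 2R, 3L and 3R were at least 4-fold higher in adults. Of the X-linked genes 2.88% were at least 4-fold higher in larvae, where 4.13 to 6.33% were on the major autosomal arms. Of 74 tested genes on chromosome 4, 1 passed 4-fold in each direction, and their median difference was -0.55. No test was run across arms, since neighbouring genes are not independent.

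For 3918 genes (32.6% of those tested) the 95% interval of the stage difference lay within 2-fold in both directions. The interval was taken on the FPKM as deposited and around 0, not around the median of 0.28. The abundant *alphaTub84B* and *RpS5a* above were among these genes. They are the general copies of families that also hold *alphaTub67C* and *RpS5b*, which were at least 4-fold higher in adults. Of the 8 tubulin genes 2 passed 4-fold in adults and 0 in larvae, so most tubulins differed less.

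Whether the stage difference itself depended on the strain was tested as the interaction of stage and strain over all 12 libraries. Of 12270 genes tested 3640 were called (29.7%). The count was 2356 without resistant larval library 1 and 2406 without resistant adult library 1. The direction depended on scaling, with 1224 more adult-directed and 2416 more larva-directed in the resistant strain on deposited FPKM and 1922 and 960 after median-of-ratios scaling. Both fits called 2136 genes with the same sign (17.4%), 1179 of them more adult-directed in the resistant strain (9.61%) and 957 less (7.8%).

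The 5 genes with the largest such differences in each direction include gut, immune and cuticle genes. *Alp9*, an alkaline phosphatase, was at 40.6, 52.2 and 28.6 FPKM in resistant larvae and 2.64, 1.66 and 24.6 in resistant adults, and at 25.3, 3.13 and 1.87 and 66.3, 86.2 and 68.8 in sensitive larvae and adults. The sign of the stage difference was opposite in the 2 strains, with an interaction of -6.14 (limma adjusted p = 0.0106, and 0.0243 after scaling). Resistant adult library 3 and sensitive larval library 1 lay away from the others of their groups, and the difference within the resistant strain alone was called on deposited FPKM (limma adjusted p = 0.0493) but not after scaling or without larval library 1 or 2 or adult library 1 or 2. *DptB*, an antibacterial peptide gene, was at 7.07, 20.8 and 19 and 3.61, 3.33 and 3.09 in resistant larvae and adults and at 4.41, 9.03 and 3.68 and 36.99, 90.4 and 113 in sensitive ones, an interaction of -5.35 (limma adjusted p = 0.000131, and 0.000997 after scaling). *CG8736* was adult-high in both strains, at 2562, 1646 and 3909.7 FPKM in resistant and 653, 100.05 and 166 in sensitive adults, with larval values of 0.22, 0.22 and 2.78 and 9.33, 14.1 and 18.6 and an interaction of 6.54 (limma adjusted p = 0.00129, and 0.00133 after scaling). *Cpr47Eg* showed the largest positive interaction, 7.89 (limma adjusted p = 0.0397, and 0.0377 after scaling). It was at 1187, 1241 and 2253 in sensitive larvae and, as given above, at or below 0.84 in 2 of the 3 resistant larval libraries and 129.65 in the third. It was not called when resistant adult library 1 or 3, or larval library 1 or 2, was left out.

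Among the lists, the storage proteins had a smaller larva-high difference in the resistant strain, with 5 of 6 members called in both interaction fits. *Lsp1beta* was at 7.99, 6.46 and 8.76 FPKM in sensitive adults, below the resistant adults' 65.4, 45.3 and 42.6, and at 8317, 12295 and 11501 in sensitive larvae, with an interaction of 3.50 (limma adjusted p = 1.05e-05, and 8.63e-06 after scaling). *Lsp2* gave an interaction of 0.00 (limma adjusted p = 0.994, and 0.372 after scaling). In both fits the stage difference was more adult-directed in the resistant strain for 13 of 15 glycolysis list members and 19 of 23 shared muscle genes. The same held for 17 of 30 seminal fluid genes and 18 of 35 glutathione transferases, against 9.61% of all genes. Cuticle lists, which share members, gave 28 of 54 (Cpr), 11 of 18 (larval) and 7 of 10 (prepupal and pupal). Their calls in the other direction were 2, 0 and 1. No sensitive library was left out for any of these list counts. Sensitive adult library 1 was the lowest of its group for some seminal fluid genes, such as *Mst57Db* at 812, 1525 and 1692 FPKM, and its part in the counts was not tested. *Mhc*, at 48.9, 44.6 and 119 FPKM in resistant larvae and 616, 418 and 952 in resistant adults, was at 202, 242 and 314 and 386, 206 and 198 in sensitive larvae and adults, where the groups overlap. No member of the female germline list was called as more adult-directed in the resistant strain, and 1 of 25 was called as less. Of 26 replication genes 0 were called in both fits.

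**Figure D5:**
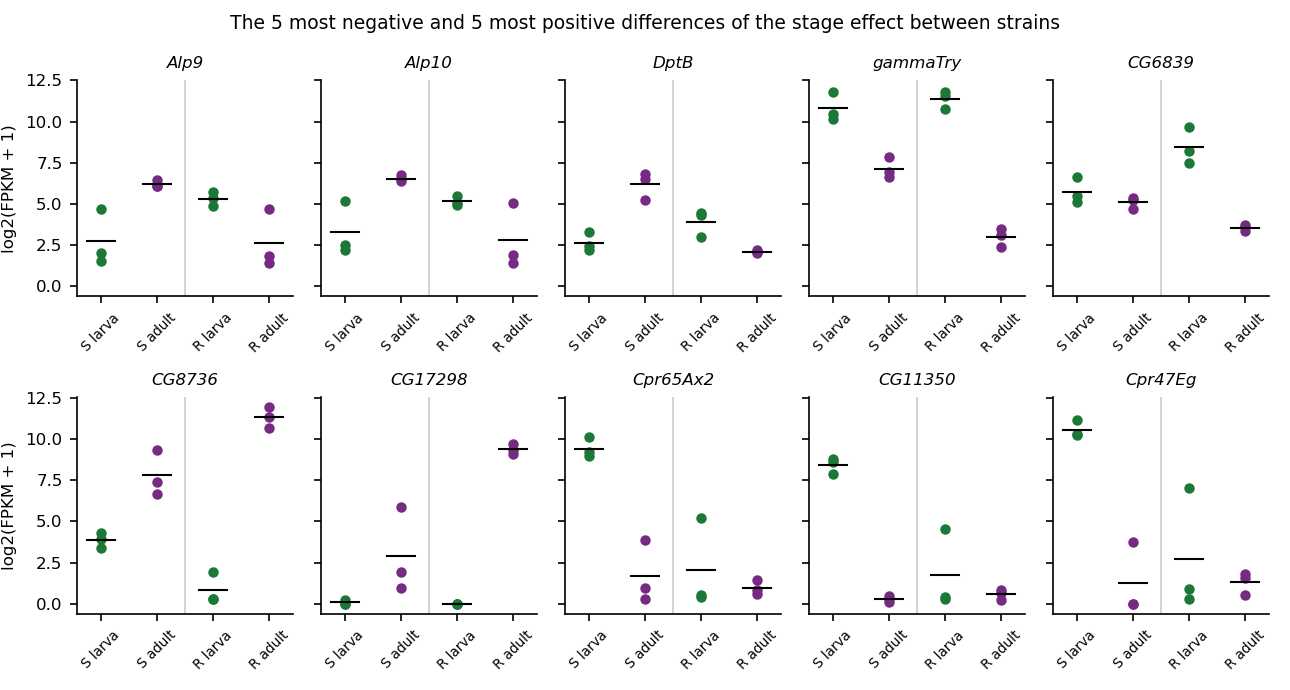
log2(FPKM + 1) in each library of sensitive (S) and resistant (R) larvae (green) and adults (purple) for the 5 genes with the largest interaction in each direction; horizontal bars are means of 3 libraries. Alp9, Alp10 and DptB lie above the larvae in every sensitive adult library and, apart from 1 resistant adult library of Alp10, below the larvae in the resistant strain, whereas Cpr47Eg, CG11350 and Cpr65Ax2 differ mainly in the larvae.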

How the data were processed

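RNA-seq was run on whole third-instar larvae and whole adults, from total RNA (TRIzol), per the labels' protocols; the instrument was a BGISEQ-500. The authors deposited 1 table of FPKM, whose genes are named in the file. RSEM 1.3.3, STAR, edgeR 3.12 and FastQC 0.11.9 are listed, per the submitters' processing notes, with no order or role. Strand handling of the counting and the treatment of reads that fit several genes are not given in the sources used here. Of 14001 genes, 13777 matched the Ensembl 115 annotation of dm6 and 256 have values equal to those of another gene, as near-identical copies can. The columns were assigned to samples by name.

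Genes at 1 FPKM or more in at least 3 of the 6 resistant libraries were tested on log2(FPKM + 1) with limma 3.58.1 (R 4.3.3; trended, robust, two-sided, Benjamini-Hochberg adjustment over all genes tested, threshold 0.05). A second rule added a difference of at least 2, which is 4-fold. The interaction of stage and strain used all 12 libraries. Depth was estimated from the steps between low FPKM values, with 87.3 to 93.8% of the values examined within 0.2 of a whole read. The depth was chosen to make this share as high as possible. A share of 40% would be given by chance at a depth fixed in advance, so it does not test the estimate. It is an estimate and no count test was run. The members and gene lists were chosen with earlier results of these data known, and the lists carry no test of their own. Genes named are the 12 with the largest called differences in each direction, list members, with the 4 largest called in each direction for lists of more than 15, and the 5 with the largest interactions in each direction. Other list members and paralogs were named after their values were seen, to show a role or an exception. Names in the lists that matched no gene numbered 19. Alternatives were other scalings, a pseudocount of 0.1, other filters and thresholds, a replicate block, all 12 libraries in 1 fit and each resistant library left out in turn.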

Additional observations from a re-analysis of the deposited data

Results flagged for a closer look

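For 10 genes, the 5 largest in each direction, the stage difference in the resistant strain differed from that in the sensitive strain, as tested by the interaction of stage and strain over 12 libraries (limma adjusted p under 0.05 with and without scaling). Values are resistant minus sensitive differences on the log2(FPKM + 1) scale, and 17.4% of all genes were called in the same way. The 14 alternatives left out resistant libraries only, so dependence on a single sensitive library was not tested. The alkaline phosphatase genes *Alp9* (-6.14) and *Alp10* (-5.63) were called in 13 of 14 alternatives each. *DptB* (-5.35), *gammaTry* (-4.71) and *CG6839* (-4.27) were called in all 14. *gammaTry* was at 231, 100.3 and 122 FPKM in sensitive adults against 10.04, 7.88 and 4.24 in resistant adults; the resistant values equal those of its neighbour *deltaTry*.

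In the other direction *Cpr47Eg* (7.89) was called in 7 of 14 alternatives and *Cpr65Ax2* (6.58) in 8. *Cpr65Ax2* was at 491, 578 and 1089 FPKM in sensitive larvae and 0.35, 0.47 and 35.2 in resistant larvae, and *CG11350* (6.98, called in 14) at 236, 392 and 439 and 0.33, 0.22 and 22.4. In all 3 genes resistant larval library 3 is the highest of its group. *CG17298* (6.55, called in 13) was at 655, 542 and 819.5 FPKM in resistant and 58.4, 0.9 and 2.72 in sensitive adults, with sensitive adult library 1 the highest. *CG8736* (6.54) was called in 14 and also has sensitive adult library 1 as the highest of its group. What sets these libraries apart was not tested.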

How the results depend on the processing

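The count of called genes stayed within 1.5 times under the other scalings, filters, pseudocount, FDR of 0.01 and the fit of 12 libraries (4745 to 6975). Tested by limma treat against a 2-fold change, 2120 genes were called, 1412 higher in adults and 708 in larvae. Leaving out each library gave 5062 to 7218 called genes, 3359 to 5076 higher in adults and 1703 to 2142 in larvae, with 1089 to 1221 and 531 to 591 past 4-fold. The interaction called 1318 genes at an FDR of 0.01 and 2356 to 4752 with a resistant library left out. No sensitive library was left out of it. Of 231 called genes named in the text, 44 lost their call under some alternative, 14 of them with a library left out, and none reversed. Larvae and adults share replicate numbers, and deviations of same-numbered libraries correlated at -0.213, 0.167 and 0.108. Larval libraries 2 and 3 correlated best with the adult library of their own number, and larval library 1 with adult library 3 (0.08). The correlations were low and no label states a pairing, so the numbers are not taken as pairs. With the replicate block 6296 genes were called, 4206 higher in adults and 2090 in larvae, and the interaction called 3126. Low genes are limited by depth, 1 read in a 1000-base transcript being worth 0.0784 to 0.0893 FPKM.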
